A study of Homo sapiens with 6 samples.

Results

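Genes of the BCL2 family, the regulators of mitochondrial apoptosis, were followed in a deposited table of gene expression by matching their symbols: the BH3-only genes PMAIP1, BBC3, BID, BIK, BMF and BCL2L11, the anti-apoptotic genes BCL2L1 and MCL1, and the effector genes BAX and BAK1. All 10 genes were present among the 11456 genes of the table. The cells were HepG2-hCAR, 1 clone of HepG2, a human liver carcinoma line, selected after infection with a lentivirus from which doxycycline induces full-length human CAR. CAR is the constitutive androstane receptor (gene NR1I3), a nuclear receptor of hepatocytes that activates drug-metabolism genes. Cells received doxycycline at 1 µg/ml or vehicle, both for 72 h, with 3 libraries in each group. Vehicle cells carry the same lentiviral construct and went through the same puromycin selection, and no library used here had doxycycline without the construct, so the antibiotic and the receptor cannot be told apart as sources of a change. The series compares the 2 mRNA profiles. Values are FPKM, fragments per kilobase of transcript scaled to the mapped fragments of the library, so genes can be compared with each other per length. Sequencing depth is unknown, and a change in FPKM is a change in the share of the library.

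The family decides whether a cell opens the outer membrane of its mitochondria and dies by apoptosis. Its members fall into 3 roles. The effectors BAX and BAK1 form the pores, the anti-apoptotic proteins such as BCL2L1 (BCL-xL) and MCL1 hold the effectors in check, and the BH3-only proteins, which sense stress, bind the anti-apoptotic proteins or activate the effectors. In liver cells BCL-xL and MCL1 are both known to protect hepatocytes from apoptosis. PMAIP1 (NOXA), a BH3-only protein, binds MCL1 and promotes its degradation.

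NR1I3 was at 331, 317 and 316 FPKM in the doxycycline libraries, against 3.15, 3.01 and 3.56 FPKM in the vehicle libraries, so the receptor's mRNA followed the labels. Per library the listed FPKM summed to 204298 to 209354. All 9 hepatocyte and hepatoma markers searched for were listed, with a summed level of 1110 to 1145 FPKM with doxycycline and 1827 to 1981 FPKM with vehicle. Among them albumin (ALB) was low, at 0.373 ± 0.0951 FPKM with doxycycline and 1.87 ± 0.0837 FPKM with vehicle, while GPC3, a hepatoma antigen, was at 406 ± 6.33 FPKM with doxycycline and 410 ± 7.43 FPKM with vehicle (SD, n = 3 each). AFP, of the same list, fell to 0.32 ± 0.065 FPKM with doxycycline, against 6.01 ± 0.377 FPKM with vehicle (limma adjusted p = 1.15e-05). ALB, TF, APOA1, APOB and TTR were called lower too, while SERPINA1, HNF4A and GPC3 did not pass the test. Of markers of other cells, 1 of 6 fibroblast, 4 of 6 leukocyte and none of 4 endothelial genes were listed. The leukocyte sum was 264 to 278 FPKM with doxycycline and 545 to 588 FPKM with vehicle, nearly all from the lysozyme gene LYZ, which fell. CD14, of the same list, went the other way, at 1.85, 1.91 and 2.00 FPKM with doxycycline, against 0.0853, 0.0347 and 0.0533 FPKM with vehicle, below the mean needed for the test. PDGFRB, the listed fibroblast gene, rose to 1.43 ± 0.0327 FPKM with doxycycline, against 0.856 ± 0.0957 FPKM with vehicle (limma adjusted p = 0.00397). PTPRC, which defines leukocytes, was not analysed here. These marker levels move with treatment, and their part in the results below was not tested. In such bulk libraries fewer cells of a type and less RNA per cell cannot be told apart. Nothing in the labels says that libraries of 1 group are separate cultures, and the p-values below then cover the spread of these samples alone, which may be technical.

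Promoters are the DNA next to which transcription of these genes starts. They are shown for the genes that rose by the largest factors and were in the set of RefSeq promoter windows used here. Each is the 250 bases before the 5′-most start that RefSeq lists for the gene, 5′ to 3′ on the gene's strand, in build GRCh38.p14. Capitals mark TGACG, the core of the sites of CREB and ATF factors, and CCAAT, the site of the factor NF-Y, each on either strand. TGACG therefore reads CGTCA, and CCAAT reads ATTGG, where the match is on the opposite strand.
PMAIP1, chr18:59899746-59899995, plus strand: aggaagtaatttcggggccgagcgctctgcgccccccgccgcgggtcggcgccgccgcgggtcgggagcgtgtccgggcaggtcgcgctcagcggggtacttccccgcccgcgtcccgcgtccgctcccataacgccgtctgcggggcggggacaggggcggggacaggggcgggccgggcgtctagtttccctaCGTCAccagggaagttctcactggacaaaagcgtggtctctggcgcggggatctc
BMF, chr15:40108880-40109129, minus strand: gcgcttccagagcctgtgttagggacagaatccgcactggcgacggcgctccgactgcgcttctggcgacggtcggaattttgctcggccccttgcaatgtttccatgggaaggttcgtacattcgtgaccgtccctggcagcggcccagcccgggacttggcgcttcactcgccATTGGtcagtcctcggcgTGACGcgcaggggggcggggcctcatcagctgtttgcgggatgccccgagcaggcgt
BCL2L1, chr20:31723964-31724213, minus strand: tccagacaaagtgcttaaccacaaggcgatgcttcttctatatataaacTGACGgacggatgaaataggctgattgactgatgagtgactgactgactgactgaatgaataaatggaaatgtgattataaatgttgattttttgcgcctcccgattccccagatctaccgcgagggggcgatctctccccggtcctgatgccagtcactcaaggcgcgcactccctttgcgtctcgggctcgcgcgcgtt

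All 3 windows shown hold TGACG once, with 50 bases between it and the start in PMAIP1, 52 in BMF and 196 in BCL2L1. The second RefSeq window of BMF, the second of BCL2L1 and all 5 of BID, which also rose, hold none, so TGACG was in 3 of the 10 windows of genes that rose. The window of BAX, a gene that did not pass the test, holds TGACG too, and of all 35116 RefSeq promoter windows of this length 21.2% do. CCAAT occurs in the BMF window shown, in those of BBC3, BCL2L11, BAX and BAK1, which did not pass, and in 32.0% of all windows. TGACG, which lies inside TGACGTCA, was added to the search after the other motifs had been looked up. The full TGACGTCA (1.65% of all windows), TGATGNAAT (0.888%) and DR4, a direct-repeat motif of the kind bound by CAR (0.0057%, 2 windows), were in none of the 14 windows of the members. The set of RefSeq windows used here held 8 of the 10 genes, and MCL1 and BIK were not in it. The DR4 search matched only 2 of all 35116 windows, so it could hardly have matched any of 14. Its absence from the windows of the members therefore does not show that they lack sites for CAR. These matches describe letters in short windows and do not show binding.

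**Figure D1:**
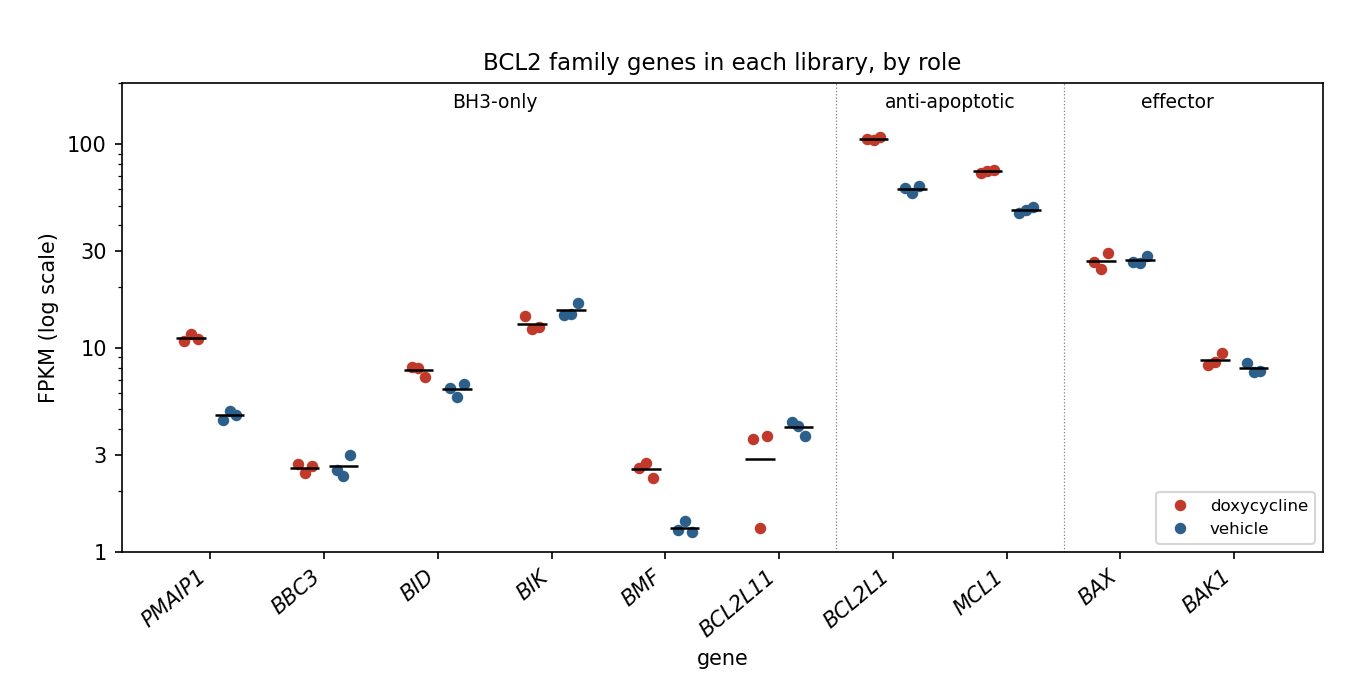
FPKM (log axis) of the 10 BCL2 family genes, grouped by role; each point is 1 library, doxycycline left of vehicle, and the black line is the group mean. PMAIP1, BMF, BCL2L1 and MCL1 stand higher in all 3 doxycycline libraries than in any vehicle library, while BAX and BBC3 lie at the same height in both groups.

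With doxycycline 5 of the 10 genes rose and none fell: PMAIP1, BMF and BID among the BH3-only genes, and both anti-apoptotic genes, BCL2L1 and MCL1. The tests were made with limma on log2(FPKM + 1) over all 10469 genes tested, with Benjamini-Hochberg adjustment and a threshold of 0.05 on the adjusted p. Over all genes tested 15.2% were called higher, 13.6% lower and 28.8% either way. At an unadjusted p under 0.05 the count of members was 6, with BIK, which was lower, as the addition. That limit is passed by many genes: STAT3, of a list below, had a limma p of 0.0482 and ranked 4237 by p among the 10469 tested. The median log2 difference, doxycycline minus vehicle, was 0.20 over the 10 genes and 0.01 over all genes tested. The groups did not overlap in 7 of the 10 genes, where 47.1% of all genes tested did not overlap. The genes were listed with earlier results on these libraries known, PMAIP1 among them, so the count is no independent evidence of a direction.

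PMAIP1 had the largest difference of the 10. It is on chromosome 18 (GRCh37 57567180 to 57571538, plus strand, ENSG00000141682). PMAIP1 was at 10.8, 11.7 and 11.1 FPKM in the doxycycline libraries, against 4.46, 4.90 and 4.71 FPKM in the vehicle libraries. All 3 doxycycline libraries were above all vehicle values by a wide margin, and the values within a group lay close together. The ratio of means was 2.39 and the log2 difference 1.10 (SE 0.05, limma adjusted p = 4.89e-05), the 80th largest increase of the 10469 genes tested.

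BMF encodes a BH3-only protein that, when inactive, is held at motor complexes of the cytoskeleton, and it had the lowest mean of the 10 genes in both groups. BMF (chromosome 15, 40380091 to 40401093, minus strand) was at 2.59, 2.74 and 2.30 FPKM with doxycycline, against 1.27, 1.42 and 1.25 FPKM with vehicle. The groups were apart, with a ratio of means of 1.93 and a log2 difference of 0.61 (SE 0.07, limma adjusted p = 0.00127). The difference on the log2(FPKM + 1) scale understates the change of so low a gene. The annotation GENCODE 29 has an antisense gene, BMF-AS1, overlapping BMF, and it is not stated whether the counting used strand, so reads of the pair cannot be told apart.

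BID links death receptors to mitochondria: caspase-8 cuts it, and the fragment activates BAX and BAK1. BID (chromosome 22, 18216904 to 18257536, minus strand) was at 8.09, 8.02 and 7.25 FPKM with doxycycline, against 6.35, 5.79 and 6.70 FPKM with vehicle. The groups did not overlap, but the highest vehicle value and the lowest doxycycline value were close. The ratio of means was 1.24 and the log2 difference 0.27 (SE 0.07, limma adjusted p = 0.0281). This call was lost in 5 of 15 alternatives. The BID adjusted p by limma became 0.0818 when the replicate number entered the fit as a block, 0.0683 or 0.0702 when vehicle library 1 or 2 was dropped, and 0.0847 or 0.0828 when doxycycline library 1 or 2 was dropped. Over all 15 the adjusted p was 0.026 to 0.0847, and the difference was positive in every one of them.

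Of the 6 BH3-only genes 3 did not pass the test. BIK, a BH3-only protein of the endoplasmic reticulum and the most abundant mRNA of these 6 genes, was at 14.3, 12.5 and 12.7 FPKM with doxycycline, against 14.5, 14.7 and 16.7 FPKM with vehicle. Each doxycycline value was below each vehicle value, yet the first of them by little, and the log2 difference of -0.20 (95% interval -0.39 to -0.02) had a limma adjusted p of 0.0888. BBC3 (PUMA), a BH3-only protein that binds all the main anti-apoptotic proteins, was at 2.70, 2.43 and 2.65 FPKM with doxycycline, against 2.53, 2.37 and 2.99 FPKM with vehicle. Its doxycycline values lay inside the range of the vehicle values, and the interval of the log2 difference was -0.20 to 0.18 around an estimate of -0.01 (limma adjusted p = 0.917), whose sign flips when vehicle replicate 3 or doxycycline replicate 2 is left out. That interval lies below the whole interval of PMAIP1 (0.98 to 1.23), although the difference between the 2 genes was not tested.

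BCL2L11 (BIM), which binds every anti-apoptotic protein of the family and activates BAX, was the most uneven of the 10. BCL2L11 was at 3.57, 1.31 and 3.71 FPKM with doxycycline, against 4.36, 4.17 and 3.73 FPKM with vehicle. Doxycycline replicate 2 stood far below the other 5 libraries, which lay within 3.57 to 4.36 FPKM. The log2 difference was -0.46 (95% interval -1.15 to 0.22, limma adjusted p = 0.266). Without doxycycline replicate 2 it was -0.13 (adjusted p = 0.271), so the size of the difference rests on that library. GENCODE 29 places the long noncoding gene MIR4435-2HG across BCL2L11 on the opposite strand.

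**Figure D2:**
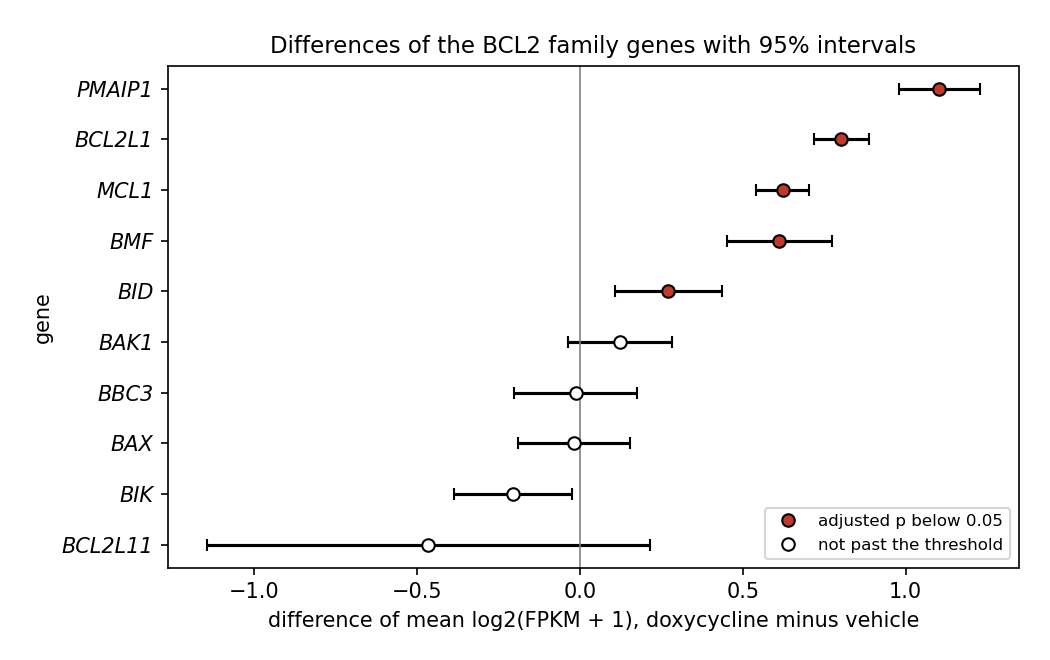
Difference of mean log2(FPKM + 1), doxycycline minus vehicle, for the 10 BCL2 family genes; bars are 95% intervals from limma with 3 libraries per group, and filled points have an adjusted p below 0.05. The intervals of PMAIP1, BCL2L1, MCL1 and BMF lie wholly above 0.45, and that of BCL2L11 is the widest.

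Both anti-apoptotic genes rose, and they were the most abundant of the 10 in every library. BCL2L1 (chromosome 20, 30252255 to 30311792, minus strand, ENSG00000171552) was at 105, 105 and 108 FPKM in the doxycycline libraries, against 61.0, 57.9 and 62.5 FPKM in the vehicle libraries. The spread within each group was small beside the gap, with means of 106 ± 1.5 FPKM with doxycycline and 60.5 ± 2.36 FPKM with vehicle (SD, n = 3 each). The ratio was 1.76 and the log2 difference 0.80 (SE 0.03, limma adjusted p = 3.86e-05). BCL2L1 mRNA is spliced into a long form, which protects cells, and a short form, which promotes death, and the gene-level value does not separate them. The antisense gene ABALON and a further antisense gene overlap BCL2L1 in GENCODE 29.

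MCL1, a protein with a short half-life that restrains BAK1 and BIM and is the main partner of NOXA, moved with BCL2L1. MCL1 (chromosome 1, 150547027 to 150552214, minus strand, ENSG00000143384) was at 72.4, 73.6 and 75.0 FPKM with doxycycline, against 45.8, 47.8 and 48.9 FPKM with vehicle. No values came near each other across the groups. The ratio of means was 1.55 and the log2 difference 0.62 (SE 0.03, limma adjusted p = 8.13e-05). In GENCODE 29 a noncoding gene, ADAMTSL4-AS1, overlaps MCL1 on the same strand, and MCL1 too has splice forms of opposite function that the value joins.

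The effector genes did not pass the test. BAX (chromosome 19, 49458072 to 49465055, plus strand) was at 26.3, 24.4 and 29.2 FPKM with doxycycline, against 26.4, 26.1 and 28.3 FPKM with vehicle. The vehicle values lay inside the range of the doxycycline values. The log2 difference was -0.02 (95% interval -0.19 to 0.15, limma adjusted p = 0.88), and its sign flips without vehicle replicate 3 or doxycycline replicate 2. BAK1 (chromosome 6, 33540324 to 33548070, minus strand) was at 8.25, 8.51 and 9.50 FPKM with doxycycline, against 8.44, 7.64 and 7.75 FPKM with vehicle. The groups overlapped, and the log2 difference was 0.12 (95% interval -0.04 to 0.28, limma adjusted p = 0.21). BAK1 has 2 processed pseudogenes, BAK1P1 and BAK1P2, with which its reads may be shared, so its level is uncertain.

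In order of level, the family ran from BCL2L1 through MCL1, BAX and BIK at the top in both groups. With doxycycline PMAIP1 came next (11.2 ± 0.475 FPKM), then BAK1 (8.75 ± 0.664), BID (7.78 ± 0.468), BCL2L11 (2.87 ± 1.35), BBC3 (2.59 ± 0.142) and BMF (2.54 ± 0.22 FPKM). With vehicle BAK1 (7.94 ± 0.435 FPKM) and BID (6.28 ± 0.461) stood above PMAIP1 (4.69 ± 0.218), followed by BCL2L11 (4.09 ± 0.328), BBC3 (2.63 ± 0.325) and BMF (1.32 ± 0.0923 FPKM). PMAIP1 thus held rank 5 with doxycycline and rank 7 with vehicle. With doxycycline the values of BCL2L11, BBC3 and BMF overlapped as neighbours in the order, and with vehicle no neighbours overlapped.

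Ratios of FPKM within a library show how these mRNAs stood to one another. BAX to BCL2L1 was 0.249, 0.232 and 0.271 in the doxycycline libraries, against 0.433, 0.451 and 0.453 in the vehicle libraries. This effector mRNA was thus a smaller fraction of its inhibitor's in all 3 doxycycline libraries than in any vehicle library. PMAIP1 to MCL1 was 0.149, 0.159 and 0.148 with doxycycline, against 0.0974, 0.102 and 0.0962 with vehicle. PMAIP1 was therefore higher relative to MCL1 in every doxycycline library, although both had risen. MCL1 to BCL2L1 was 0.686, 0.70 and 0.695 with doxycycline, against 0.75, 0.826 and 0.784 with vehicle.

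Summed by role, a quantity chosen after the values were seen, the 2 anti-apoptotic genes came to 180 ± 2.69 FPKM with doxycycline and 108 ± 3.03 FPKM with vehicle (SD, n = 3 each). The 2 effectors came to 35.4 ± 3.01 FPKM with doxycycline and 34.9 ± 1.15 FPKM with vehicle, and the 6 BH3-only genes to 40.2 ± 1.72 FPKM with doxycycline and 34.3 ± 1.52 FPKM with vehicle. Without BIK, the most abundant of them, the BH3-only sum was 27.0 ± 0.756 FPKM with doxycycline and 19.0 ± 0.37 FPKM with vehicle. These ratios and sums are descriptions of mRNA without a test, and mRNA levels do not give protein levels.

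**Figure D3:**
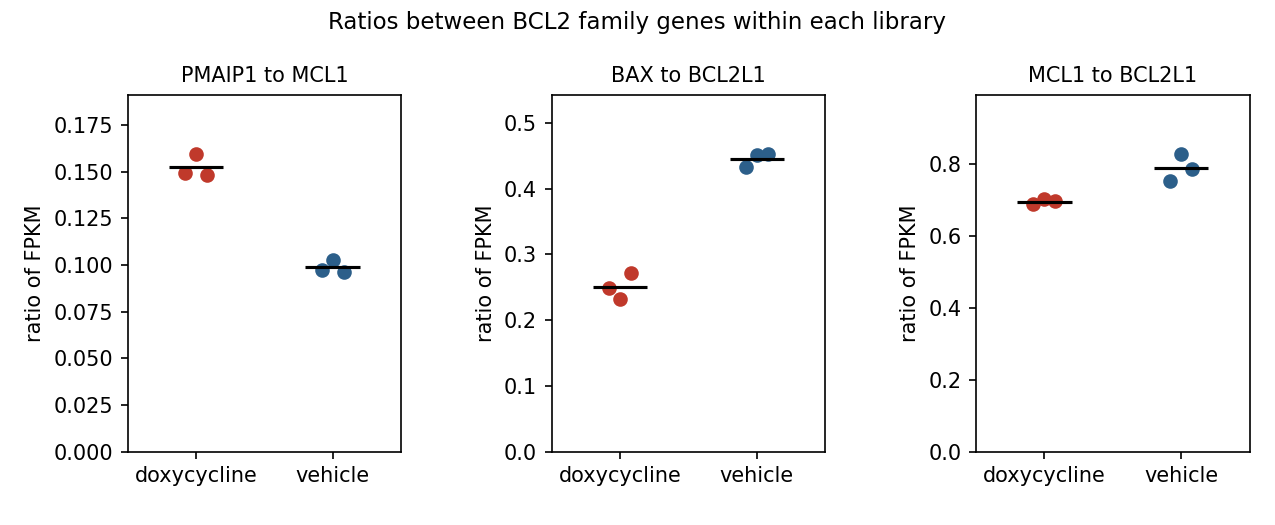
Ratio of FPKM between pairs of BCL2 family genes in each library, doxycycline left of vehicle; points are libraries and lines are means of 3. PMAIP1 to MCL1 averages 0.152 with doxycycline and 0.0987 with vehicle, and BAX to BCL2L1 averages 0.251 with doxycycline and 0.445 with vehicle.

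Neighbours were taken by position, not by their values. Of the 10 listed genes that flank the 5 members that rose, 1 rose, 1 fell and 8 did not pass the test. The share called either way over all genes tested was 28.8%, so this count shows nothing particular to the flanking genes. None of the 10 members overlapped another gene of the table. BCL2L1 lies between ID1, an inhibitor of helix-loop-helix transcription factors, 57937 bp away, and the spindle gene TPX2, 15282 bp away. ID1 rose, with a ratio of means of 1.17 (limma adjusted p = 0.00552), and TPX2 had a ratio of 0.967 (adjusted p = 0.159). The nearest listed genes to MCL1, ADAMTSL4 (ratio 0.82, adjusted p = 0.068) and ENSA (1.04, adjusted p = 0.565), did not pass the test. LMAN1, a secretory cargo receptor and the nearest listed gene on the lower side of PMAIP1, lies 539986 bp away and fell, with a ratio of 0.804 (limma adjusted p = 0.00128). BID is 3283 bp from another gene of the family, BCL2L13, at a ratio of 1.28 (adjusted p = 0.0629). Beside the effectors, BAX is 3503 bp from the ferritin light chain gene FTL, which fell with a ratio of 0.753 (adjusted p = 0.00125).

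Among other BCL2 family and related genes 9 of 14 listed by symbol were in the table, of which 2 rose, 1 fell and 6 did not pass. The share called was 33.3%, near the 28.8% of all genes tested. BAD, a BH3-only protein regulated by phosphorylation, was at 7.56, 7.94 and 8.30 FPKM with doxycycline, against 4.92, 5.01 and 7.05 FPKM with vehicle (log2 difference 0.44, limma adjusted p = 0.0459). Vehicle replicate 3 stood close to the doxycycline values, and the call was lost in 6 of 15 alternatives. The BAD adjusted p became 0.0531 with quantile normalization, 0.123 or 0.125 when vehicle library 1 or 2 was dropped, and 0.0884, 0.109 or 0.121 when doxycycline library 1, 2 or 3 was dropped, and it was 0.00279 at the lowest. BECN1, an autophagy protein with a BH3 domain, had a log2 difference of 0.16 (limma adjusted p = 0.0303). The BECN1 call also ended in 6 of 15 alternatives: when vehicle library 1 (adjusted p = 0.0843) or 3 (0.0842) was dropped, when doxycycline library 1 (0.0871) or 2 (0.0865) was dropped, with quantile normalization (0.0553) and with the replicate block (0.0614). The lowest adjusted p over them was 0.0262. BNIP3, a mitophagy receptor induced by hypoxia, fell to 70.4 ± 3.30 FPKM with doxycycline, against 90.6 ± 4.02 FPKM with vehicle (limma adjusted p = 0.00282).

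BCL2 and BCL2L2, further anti-apoptotic genes, were named after their values were seen. BCL2 was near the lower end of the table, at 1.08, 1.21 and 1.33 FPKM with doxycycline, against 0.968, 0.956 and 0.916 FPKM with vehicle (limma adjusted p = 0.0684). BCL2 passed in 1 of 14 alternatives, limma without the trend (adjusted p = 0.0469), and the adjusted p over the 14 was 0.0469 to 0.167. BCL2L2 was uneven within both groups, at 8.23, 1.21 and 8.98 FPKM with doxycycline, against 2.70, 7.78 and 7.82 FPKM with vehicle. Doxycycline replicate 2 was the lowest of the 6 libraries for BCL2L2, as it was for BCL2L11.

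Upstream of the mitochondria, of 12 listed death receptors and their adaptors 11 could be tested, of which 7 rose, 4 did not pass and none fell. The share called was 63.6% in this list, against 28.8% of all genes tested, and 10.0% to 33.3% in the other 6 lists described here. The median log2 difference was 0.34, and 0.01 over all genes tested. The lists were chosen with earlier results on these libraries known, so neither the share nor the median is independent evidence of a direction. TNFRSF1A, the main receptor of tumour necrosis factor, was at 20.8 ± 2.55 FPKM with doxycycline and 9.01 ± 0.768 FPKM with vehicle (log2 difference 1.12, limma adjusted p = 0.000528). TNFRSF10D, a decoy receptor for the death ligand TRAIL, was at 22.3 ± 0.689 FPKM with doxycycline and 13.9 ± 0.419 FPKM with vehicle (log2 difference 0.64), and TNFRSF10A, a TRAIL receptor that does signal death, at 11.2 ± 0.677 FPKM with doxycycline and 7.62 ± 0.265 FPKM with vehicle (log2 difference 0.51). The genes that rose thus include both a death-signalling receptor and a decoy. TNFRSF10B, FADD, RIPK1 and TRAF2, named after their values were seen, rose too. TNFRSF10C, FAS, TRADD and CFLAR did not pass the test.

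Downstream of the mitochondria, of 13 apoptosome and caspase genes 1 rose, 2 fell and 10 did not pass. CASP6, an executioner caspase, fell to 6.16 ± 0.365 FPKM with doxycycline, against 8.57 ± 0.112 FPKM with vehicle (log2 difference -0.42), and AIFM1, a mitochondrial flavoprotein released in cell death, fell to 22.4 ± 0.268 FPKM, against 26.2 ± 0.361 FPKM with vehicle (log2 difference -0.22). DFFA, the inhibitor of the apoptotic nuclease, was at 32.2 ± 0.956 FPKM with doxycycline and 28.0 ± 1.16 FPKM with vehicle. Its limma adjusted p of 0.0166 became 0.0523 with the replicate block and 0.0526 or 0.0541 when doxycycline library 1 or 2 was dropped, with a lowest value of 0.0142. Of 8 tested IAP genes and antagonists 1 rose and 7 did not pass. That gene, BIRC7 (livin), an inhibitor of apoptosis, was at 8.49 ± 1.49 FPKM with doxycycline and 4.02 ± 0.309 FPKM with vehicle (log2 difference 0.91, limma adjusted p = 0.00257). Of 10 genes of the mitochondrial outer membrane and its dynamics only VDAC2, the channel that holds BAK1 at the membrane, passed, at 57.3 ± 0.504 FPKM with doxycycline and 51.6 ± 0.587 FPKM with vehicle (log2 difference 0.15).

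Of 14 tested transcription factors known to control BCL2 family genes 3 rose and 11 did not pass. JUN was at 25.7 ± 1.53 FPKM with doxycycline and 19.3 ± 0.129 FPKM with vehicle (log2 difference 0.40), CEBPB at 46.8 ± 3.27 FPKM with doxycycline and 36.4 ± 0.657 FPKM with vehicle (0.35), and ATF4, which is known to act on PMAIP1 during amino acid stress, at 180 ± 3.48 FPKM with doxycycline and 164 ± 2.89 FPKM with vehicle (0.13). The gene with the largest difference of the list, MYC, named after its values were seen, did not pass (log2 difference -1.96, limma adjusted p = 0.116). MYC was at 3.19, 2.90 and 2.99 FPKM with doxycycline, against 3.20, 23.4 and 36.4 FPKM with vehicle. Vehicle replicate 1 stood with the doxycycline libraries, far below the other vehicle libraries.

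Of 10 tested genes that control the turnover of MCL1, NOXA, BIM and BID proteins 2 rose and 8 did not pass. MARCH5, a ubiquitin ligase of the mitochondrial surface that acts on MCL1 and NOXA, was at 22.5 ± 0.486 FPKM with doxycycline and 19.1 ± 1.13 FPKM with vehicle (limma adjusted p = 0.0181), which became 0.0528 when vehicle library 1 was dropped and 0.0584 or 0.0579 when doxycycline library 2 or 3 was dropped, with a lowest value of 0.014. DESI1, a desumoylating isopeptidase, had a log2 difference of 0.20 (limma adjusted p = 0.0106). Over the 7 lists together 17 of 75 tested genes rose and 3 fell, or 26.7% called, near the 28.8% of all genes tested. Without doxycycline replicate 1 the count that fell was 5.

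**Figure D4:**
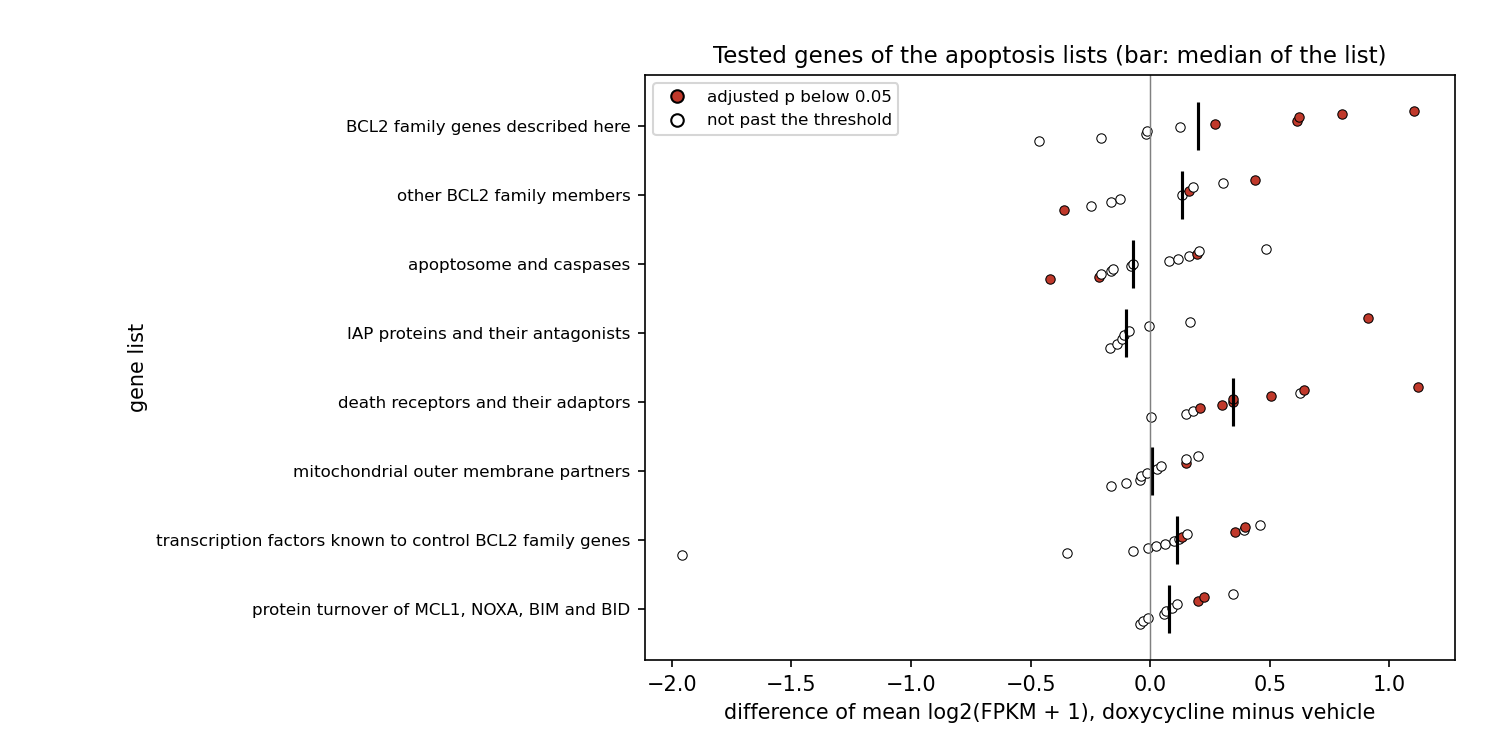
Difference of mean log2(FPKM + 1), doxycycline minus vehicle, for each tested gene of the BCL2 family members described and of 7 further apoptosis lists; each point is 1 gene, filled where the adjusted p is below 0.05, and the bar is the list's median. Death receptors and adaptors have the highest median, 0.34, and the lists of IAP proteins and of caspases have medians below 0.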

How the data were processed

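The authors deposited FPKM per gene, a column for each library, none pooled. Per the submitters' processing notes the tools were FastQC, cutadapt, HISAT2 and StringTie with build GRCh37; versions, options, strand setting and annotation release are not given in the sources used here. Per the labels' protocols, polyadenylated RNA was selected and the libraries are strand specific. FPKM is relative and its depth is unknown, so no counting interval is given.

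For 5 symbols with 2 entries the entry with the higher mean was kept, which left 11456 of 11461. The 10469 genes whose FPKM averaged 1 or more were tested, on log2(FPKM + 1), with limma 3.58.1 in R 4.3.3, group as the only term and a variance trend, two-sided, Benjamini-Hochberg over all genes tested. The procedure was tested on simulated data with independent noise and far fewer changed genes than were called here. That test therefore does not show how the fit behaves on these libraries. Fold values are ratios of mean FPKM. The text names every member, NR1I3 and up to 3 called genes with the largest difference of each further list; others were chosen after their values were seen. The members and lists were chosen with earlier results of these data known. Replicate numbers were not used as pairs in the main fit. Alternatives were other pseudocounts, filters, scalings, moderation, a replicate block, a threshold of 0.01 and leaving out each library. Promoters came from RefSeq (GRCh38.p14), overlaps from GENCODE 29 (GRCh38); gene coordinates in the text are those of the table. Figures were drawn with matplotlib 3.10.9. Some genes and lists considered are not reported here.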

Additional observations from a re-analysis of the deposited data

How the results depend on the processing

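PMAIP1, BMF, BCL2L1 and MCL1 remained called higher in all alternatives in which they were tested, 15 for each gene and 14 for BMF, which a minimum mean FPKM of 5 removes together with BBC3 and BCL2L11. Their log2 differences ranged from 1.07 to 1.24, 0.57 to 0.90, 0.77 to 0.83 and 0.60 to 0.64. With the replicate block BID kept its log2 difference of 0.27 but had an adjusted p of 0.0818, and leaving out 1 library moved its difference between 0.22 and 0.32. The block left 1231 genes higher and 1112 lower. Same-numbered libraries correlated by 0.015, -0.0321 and 0.0917 in their deviations from the group means. Deviations from a mean of 3 libraries depend on each other, so these values cannot decide whether same-numbered libraries shared a culture or a batch. Leaving out 1 library gave -0.084 to 0.042 for BAX, -0.066 to 0.057 for BBC3 and -0.58 to 0.54 for BCL2L2, none past the threshold, and 3 to 5 genes lower over the 7 further lists, against 3 with all libraries. At an adjusted p below 0.01 the genes called were 875 higher and 761 lower, against 1593 and 1419 at 0.05, since the limit is stricter, and 4 members remained higher. No scaling moved the median of all genes by over 0.1 on the log2 scale. With 3 libraries a group and depth unknown, small differences were not detectable for uneven genes such as BCL2L11.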
